A study of Capra hircus with 6 samples.

Results

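Circular RNAs (circRNAs) whose back-splice junction took a large part of the reads listed for them were described in goat (Capra hircus) ovarian follicles taken before ovulation. The back-splice share is the number of reads on the back-splice junction divided by the sum of these reads and the non-junction reads of the same circRNA. A circRNA was counted as high-share when it was listed in 3 or more of the 6 libraries and its share, from reads summed over the libraries that list it, was 20% or more. These values chose the set, so shares are given as a description. The rule found 361 high-share circRNAs, 9.73% of the 3712 circRNAs listed in 3 or more libraries and 2.59% of all 13950. The remaining 3351 of the 3712 are called the other circRNAs.

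Follicles came from 3 Boer goats and 3 Macheng black goats with normal oestrous cycles, 1 library per animal. All 6 animals had received PMSG (1000 IU), a serum gonadotropin of pregnant mares that makes follicles grow, and hCG (500 IU), a chorionic gonadotropin that acts as the ovulatory signal. No untreated animals were among the samples, and ages were not given in the sources used here. Total RNA was depleted of ribosomal RNA, with no enrichment for circular RNA named in the labels. The libraries held between 23480 and 74796 back-splice reads, and between 2218231 and 3307051 non-junction reads, over their listed circRNAs.

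Background: a circRNA forms when a downstream splice donor is joined to an upstream acceptor, which closes 1 or more exons, or retained intron, into a ring. Having no free ends, circRNAs resist exonucleases and tend to outlast linear RNA. At most loci back-splicing is a minor outcome beside linear splicing, while a few loci, SMARCA5 and CAMSAP1 among the well-known ones, yield abundant circles in many mammalian tissues. The follicle holds the oocyte, granulosa cells and theca cells. The files list circRNAs only, so the tissue could not be checked against linear marker RNA. Of 11 granulosa marker genes, 1 was named as host of an analysed circRNA and none of a high-share one. None of the 7 theca, 6 oocyte and 4 endothelial or blood markers was named as a host. Only 14.7% of all circRNAs had a host identifier that could be used, so these genes may host circRNAs among the rest.

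What the non-junction reads count sets what a share means. Pairs were taken from 1 library and 1 strand, with the shorter circRNA inside the longer and non-junction reads above 0 in both. In these 9603 pairs the longer had more non-junction reads in 9455, an equal number in 148 and fewer in 0. Non-junction reads thus seemed to accumulate over the whole span between the ends of a circRNA, rather than at the junction alone. What they count is not stated in the sources used here. On this reading, a share of 20% is a ratio of junction reads to reads over the span, and it is lower for a longer circRNA at equal coverage. It is not the fraction of transcripts that are circular.

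Non-junction reads were 0 in all 560 entries without a listed exon or intron, and above 0 in all 28310 entries with one. Of the high-share circRNAs, 25 had no non-junction read and no listed feature in any library, which puts their share at 100%, and none of the other circRNAs was of this kind. A further 17 had a listed feature in some of their libraries and none in those where the non-junction reads were 0. An example is a circRNA of ANO1, a calcium-activated chloride channel, at chr29:45212806-45213680. It had 10, 5 and 4 back-splice reads in Boer 1 to 3 and 3, 7 and 4 in Macheng black 1 to 3, with 1 non-junction read in Boer 3 and none elsewhere, and only the entry of Boer 3 names the gene. With these 42 set aside, 319 high-share circRNAs remained, with a median share of 32.6% against 34.8% in the full set.

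Pooled shares of the 361 ran from 20% to 100%, with quartiles of 26.3% and 51.2%. Among the other circRNAs the median was 2.10% and the quartiles were 0.900% and 5.05%. In 93 high-share circRNAs the back-splice reads outnumbered all non-junction reads over the span, which by the rule could not occur among the others. At the lower edge the set has no gap. Just inside it, 5 circRNAs were tied at 20%, with 10 to 23 back-splice reads each, at chr16:37095879-37097679, chr5:40213504-40225778, chr2:47595446-47595897, chr1:132351378-132352978 and, in LUZP1, chr2:128923181-128925455. The 3 just outside, at chr4:47337134-47338631, chr15:4445488-4446194 and chr23:36567072-36569946, all had a share of 19.8%. The exact (Clopper-Pearson) 95% interval of the pooled share lay above 20% for 256 of the 361 and reached below it for 105, while that of 164 other circRNAs reached 20%. Such intervals cover counting error only.

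High-share circRNAs were short. Their span had a median of 1279 bases and quartiles of 579 and 2377 bases, against a median of 7789 bases and quartiles of 3405 and 15260 bases for the others, a 6.09-fold difference in medians. Spans under 1000 bases made up 41.6% of the high-share set (150) and 6.33% of the others (212). The part of circRNAs that were high-share went from 48.7% at spans up to 500 bases (75 of 154) to 26.6% at 1001 to 2000 bases (98 of 369). It was 3.38% at 5001 to 10000 bases (27 of 800), 1.02% at 10001 to 20000 bases (9 of 881) and 1.59% above 20000 bases (8 of 503). Over the same steps the median of summed back-splice reads stayed between 18 and 22 up to 20000 bases, whereas that of non-junction reads went from 100 to 1862. Across all 3712 circRNAs, span had a Spearman rho of -0.61 with the share, 0.68 with the non-junction reads and 0.12 with the back-splice reads, as a description over circRNAs that share libraries. When non-junction reads were divided by the span in kilobases and the 361 circRNAs with the highest resulting share were taken (an alternative chosen after seeing the data), 172 of the original 361 remained. The median span of that choice was 8464 bases, above the 6765 bases of the rest, so the shortness of the set turned.

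**Figure D1:**
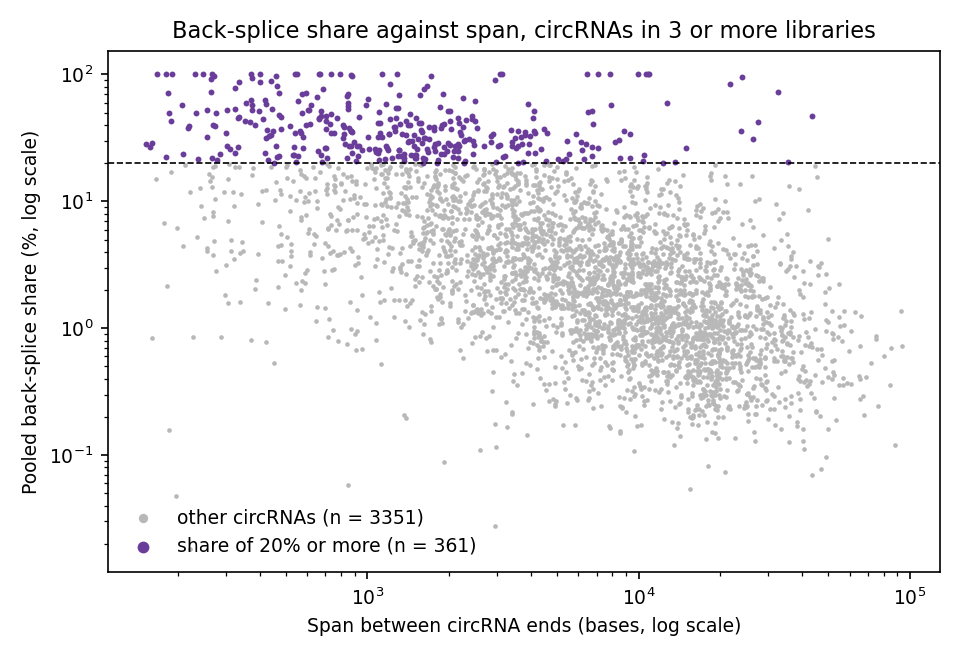
Pooled back-splice share (vertical axis, percent, log scale) against the span between the circRNA ends (horizontal axis, bases, log scale) for the 3712 circRNAs listed in 3 or more libraries. Purple points are the 361 circRNAs with a share of 20% or more, grey points the other 3351, and the dashed line is the 20% threshold; the cloud slopes down with span, and purple points thin out above 5000 bases.

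Low coverage of the span was a second feature of the set that span alone did not give. Non-junction reads per kilobase had a median of 66.5 in high-share circRNAs and 162 in the others. Among spans under 1000 bases these medians were 67.7 and 620. Both quantities enter the share, so they describe the set and test nothing.

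A few long circRNAs belonged to the set, named here after their values were seen. Spans over 20000 bases were found in 8 of the 361 (2.22%) and 495 of the others (14.8%). The longest, chr23:24338001-24381470, spans 43470 bases and was listed in 3 libraries, with 545 back-splice and 957 non-junction reads in Boer 2, 2201 and 2125 in Macheng black 1, and 323 and 320 in Macheng black 3. The circRNA from the same start to 24362056 was listed in all 6, with 41, 362 and 489 back-splice reads in Boer and 1476, 187 and 141 in Macheng black, beside only 12, 17, 25, 49, 19 and 14 non-junction reads in the same order. Its share was lowest in Boer 1 (77.4%) and between 90.8% and 96.8% in the other 5, while its back-splice reads differed widely between animals. LOC102170282 hosted a circRNA of 32537 bases at chr2:132548887-132581423 with 231 back-splice and 89 non-junction reads. CLPTM1, which encodes a transmembrane protein of the endoplasmic reticulum, hosted another of 21704 bases on a scaffold, with 56 and 10 reads. The remaining 4 were a circRNA of LOC106501751, described with the breeds, and those at chr29:43233035-43260470 (41.9%), chr5:73100297-73126812 (31.1%) and chr18:23376049-23411493 (20.4%).

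High-share circRNAs were abundant. They gave 67839 of 252857 back-splice reads (26.8%) and 0.582% of the non-junction reads. Per circRNA the median of summed back-splice reads was 47, against 21 for the others, and 53.2% were listed in all 6 libraries (192), against 28.1% of the others (940). Of the 10 circRNAs with the most back-splice reads among the 3712, 9 were high-share, as were 48 of the first 100 and 80 of the first 200. Back-splice reads are the numerator of the share, so this order is partly set by the rule. The reads were concentrated, with 36.7% of those of the set in its 10 most abundant members.

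Those 10 had pooled shares from 22.9% to 98.5%. The most abundant, a circRNA of 464 bases at chr24:40207860-40208323, had 1087, 452 and 460 back-splice reads in Boer 1 to 3 and 397, 796 and 345 in Macheng black 1 to 3. Its share was 82.8%, 78.6% and 76.3% in Boer and 79.2%, 86.4% and 74.2% in Macheng black, so the breeds overlapped. The circRNA at chr15:27869239-27870107 (869 bases) had the highest share of the 10, with 548, 193 and 400 back-splice reads in Boer, 325, 222 and 299 in Macheng black, and between 1 and 16 non-junction reads in any library. At chr1:144014343-144015556 the share was 83.6%, and it stayed between 80.6% in Boer 2 and 87.1% in Boer 1. At chr7:12693629-12694180 (552 bases) it was 22.9%, with 2402 back-splice and 8091 non-junction reads, and Boer 2 and Macheng black 3 lay below 20%.

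Shares of the other abundant circRNAs differed more between libraries. At chr1:146132688-146136588 the pooled share was 58.8%, with 78.4%, 44.0% and 69.1% in Boer and 51.7%, 52.9% and 32.1% in Macheng black. At chr3:40268725-40276642 it was 57.5%, with 79.6%, 39.4% and 66.0% in Boer and 45.5%, 60.9% and 33.6% in Macheng black. At chr10:10338566-10342667 it was 36.1%, with 47.8%, 28.1% and 39.5% in Boer and 33.5%, 33.5% and 22.7% in Macheng black. In all 3, Boer 1 was highest and Macheng black 3 was lowest. These were the libraries with the most and the fewest back-splice reads.

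The circRNAs with the highest shares were those without any non-junction read. The 10 at 100% with the most reads included a circRNA of 181 bases at chr4:66002483-66002663, with 99, 31 and 77 back-splice reads in Boer and 57, 57 and 40 in Macheng black. On a scaffold, another of 736 bases (12955 to 13690) had 16, 31 and 30 reads in Boer and 30, 148 and 79 in Macheng black. The other 8 had between 37 and 94 reads in all, with spans from 190 to 10806 bases. Since a share of 100% here always goes with a missing annotation, the highest shares with at least 1 non-junction read were also taken, a choice made after the values were seen. These were the chr15 circRNA given above (98.5%) and circRNAs of PPP6R2, a regulatory subunit of protein phosphatase 6 (97.7%, 42 of 43 reads), SMARCA5 (97.6%), UBL5 (97.2%) and ANO1 (97.1%, 33 of 34 reads). The circRNA of PPP6R2 had its single non-junction read in Macheng black 1, where its share was 90.9%, and like that of ANO1 it had no listed feature in the other 5 libraries.

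Of the 361, 71 (19.7%) had a usable host gene, meaning an identifier on a single chromosome with no listed part over 1 Mb, as had 529 of the others (15.8%). A further 265 carried an unusable identifier and were all listed with introns only, a class that says nothing of their origin. Of the 71, 44 (62.0%) had a listed exon, as had 403 of 529 others (76.2%). Exactly 1 exon was listed for 42 of these 44 (95.5%), against 59.8% of the 403. By class, high-share circRNAs were 41.5% of those listed with exons only (17 of 41), 17.6% of those with introns only (27 of 153) and 6.65% of those with exon and intron parts (27 of 406), against 11.8% over all 600. The median span moved with these classes. It was 712.5 bases for the others with exons only and 9589 bases for those with both parts, and the part of span in the class difference was not tested.

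The 71 circRNAs came from 69 host genes. RefSeq's gene table for assembly ARS1.2, from which names alone were taken, gave a symbol for 64 of them. No host had 3 or more. The 2 hosts with a pair were SLX4IP, whose pair differs by 3 bases at the start (chr13:3180888-3185046 and chr13:3180891-3185046, 21 and 43 reads) and may not be separate molecules, and a gene without a symbol. In 25 of the 69 hosts, further circRNAs were listed in 3 or more libraries that did not reach 20%, and in 19 of these 25 the high-share circRNA was the most abundant of its gene. The rule partly sets this count, since back-splice reads are the numerator of the share.

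The 20 named hosts are ordered here by their known roles, a grouping made by hand after they were chosen. SMARCA5 is the ATPase of ISWI chromatin remodelling complexes. Its circRNA at chr17:14096918-14097377 (460 bases) was listed with introns only. It had 316, 63 and 109 back-splice reads in Boer and 187, 267 and 88 in Macheng black, beside between 1 and 8 non-junction reads in any library. The pooled share was 97.6% (exact 95% interval 96.5% to 98.5%), with the lowest library, Macheng black 3, at 91.7% and the highest, Boer 1, at 99.4%. The only other SMARCA5 circRNA in 3 or more libraries, chr17:14111814-14114689, had 99 and 940 reads, a share of 9.53%. RANBP1, a cofactor of the Ran GTPase in nuclear transport, hosted a circRNA of 2955 bases at chr17:71723963-71726917 with 222, 180 and 358 back-splice reads in Boer and 287, 255 and 150 in Macheng black. Its share ran only from 88.1% in Boer 1 to 93.1% in Macheng black 2. KAT2B, a histone acetyltransferase, and EHMT1, a histone H3 lysine methyltransferase, had shares of 36.8% (464 of 1260 reads) and 27.5% (224 of 814 reads). KAT2B had 6 circRNAs in 3 or more libraries, of which the high-share one, chr1:154761954-154763525, held 77.2% of the back-splice reads and the next reached a share of 3.43%.

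Among hosts tied to protein synthesis, folding and turnover, UBL5, a ubiquitin-like protein that acts in splicing, had 161, 72 and 115 back-splice reads in Boer and 119, 143 and 72 in Macheng black over a circRNA of 272 bases (chr7:10965551-10965822). This circRNA was listed with introns only, and its share stayed between 96.0% and 99.1% in all 6 libraries. PRKCSH, the beta subunit of glucosidase II in the endoplasmic reticulum, had a share of 77.4%, between 74.0% and 85.3% by library. ASB7, a substrate adaptor of a ubiquitin ligase, had 43.5%, DNAJB6, a co-chaperone, 32.3%, and RPS9, a protein of the small ribosomal subunit, 23.7%. Of these, DNAJB6 varied most, from 11.3% in Boer 2 to 60.9% in Boer 1.

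The remaining named hosts have varied roles. PRKCA, protein kinase C alpha, had a pooled share of 81.0%, but 98 of its 192 back-splice reads came from Boer 1 (94.2%), and Boer 2 was at 42.9% with 9 and 12 reads. CAMSAP1, which binds the minus ends of microtubules, had between 68 and 126 back-splice reads in the Boer animals and between 38 and 73 in the Macheng black animals (chr11:101848987-101850159), with shares from 37.6% in Macheng black 3 to 71.6% in Macheng black 1. MAPK8, the stress kinase JNK1, had a share of 31.3% at chr28:40256138-40259633, with its other circRNA at 6.49%. DGKH, a diacylglycerol kinase, had 24.2% and DOCK1, an activator of Rac, 20.3%. For DOCK1 only Boer 1 (48.1%), Boer 3 (23.4%) and Macheng black 1 (20.2%) reached 20%. MBTPS2, the site-2 protease that releases sterol regulatory element-binding proteins, had 41.1%, NHLRC3 71.7%, CRB1, a cell polarity protein, 21.0%, and LOC102191110 22.1%.

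**Figure D2:**
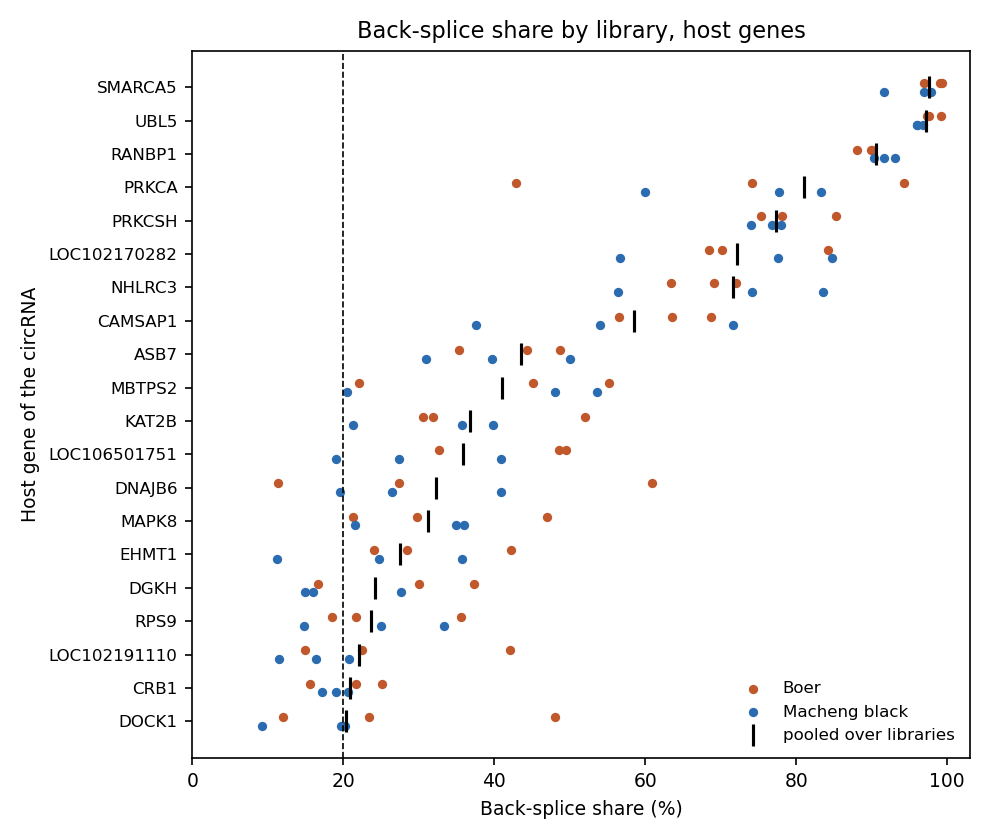
Back-splice share (horizontal axis, percent) of the 20 high-share circRNAs with the most back-splice reads among those with a named host gene, ordered by pooled share. Orange points are the 3 Boer libraries, blue points the 3 Macheng black libraries, black ticks the pooled share and the dashed line 20%; SMARCA5, UBL5 and RANBP1 stay within narrow ranges near the top, while PRKCA and DNAJB6 spread widely.

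Of 33 genes listed as hosts of conserved mammalian circRNAs, 3 were usable hosts of circRNAs in 3 or more libraries, with 9 circRNAs, and the 2 high-share ones were those of SMARCA5 and CAMSAP1 (22.2% of the 9). That of SMARCA5 was listed with introns only, and whether it is the circle known from other tissues was not tested. The 6 circRNAs of SLC8A1, the sodium-calcium exchanger, had between 17 and 326 back-splice reads each and shares from 0.827% to 8.94%. None of the 8 circRNAs of the chromatin list, 3 of the TGF-beta and BMP list, 17 of the extracellular matrix and integrin list and 12 of the ubiquitin ligase list was high-share, where 11.8% of all circRNAs with a usable host were. Hosts of high-share circRNAs that the chromatin list did not hold include SMARCA5, KAT2B, EHMT1 and KANSL3. The ubiquitin ligase list did not hold ASB7, ANKIB1 or SH3RF1, which also hosted high-share circRNAs. Counts of 0 therefore cover only the genes listed. With so few circRNAs per list these counts are a description.

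Some circRNAs shared a splice position with others. Of the high-share circRNAs, 84 (23.3%) shared a start or an end with another circRNA listed in 3 or more libraries, against 1371 others (40.9%). In 76 groups that shared an end and held both kinds, the most abundant high-share circRNA was shorter than the most abundant other one in 72 and had more back-splice reads in 61. These counts are largely fixed by the rule, since back-splice reads are the numerator of the share. Within a library, where both had non-junction reads, a longer circRNA around a shorter one never had fewer of them. In reads summed over the listing libraries it sometimes did. For CRB1 the longer circRNA had 520 summed non-junction reads and the shorter, high-share one 694. At chr24:40208323, the circRNA from 40207860 had 3537 back-splice and 841 non-junction reads, and the one from 40182639, of 25685 bases, had 19 and 6570. Of those sharing position 24269234 on chromosome 4, the circRNA of 6482 bases had 1825 and 1787 reads, and the one of 52735 bases had 46 and 10744. In both, the shorter circRNA had more back-splice reads than the longer. The opposite order was seen at chr7:26681254, where the high-share circRNA of 8173 bases (334 and 795 reads) was longer than the other of 1934 bases (11 and 189 reads).

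High-share circRNAs lay on all 30 chromosomes with circRNAs in 3 or more libraries. Their part was highest on scaffolds not assigned to a chromosome (18 of 32, 56.2%, of which 12 had no listed feature), followed by chromosomes 23 (15 of 60, 25%), 18 (18 of 74, 24.3%) and 25 (13 of 64, 20.3%). It was lowest on chromosomes 16 (6 of 129, 4.65%) and 9 (7 of 144, 4.86%). Median spans were taken over all circRNAs of a chromosome listed in 3 or more libraries. These medians were 6406.5, 4866 and 4527.5 bases on chromosomes 23, 18 and 25, and 7728 and 6887 bases on chromosomes 9 and 16. They did not order the chromosomes throughout, since chromosome 15 had 4101 bases and 10.4% high-share. The part of span in these differences was not tested. The 361 formed 353 loci on 1 strand each, of which 8 held 2, so most members stand alone. Both strands were used alike, with 50.4% of the high-share and 50.9% of the other circRNAs on the plus strand.

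Whether a high share carries over to an animal not used to find it was tested by leaving out each library in turn. CircRNAs listed in 3 or more of the remaining 5 libraries were divided at 20%, and their shares were read in the library left out. The median share there was 34.0% ± 9.22 (SD, n = 6 libraries) for those chosen and 2.37% ± 1.07 for those not chosen. The difference was 31.6 ± 8.18 points (SD, n = 6) and was positive in 6 of 6 libraries (exact sign-flip permutation test over libraries, two-sided, p = 0.031, which is the smallest that 6 libraries can give). Per library, the chosen circRNAs had medians of 49.3%, 26.0% and 33.3% in Boer and 33.3%, 38.4% and 23.6% in Macheng black. Of those chosen and listed, between 61.9% (166 of 268, Macheng black 3) and 95.9% (234 of 244, Boer 1) were at 20% or more in the library left out, against between 0.626% and 11% of those not chosen. Among spans of 500 to 2000 bases only, an alternative added after seeing the data, the difference was 27.6 points, with 20.8 points in the lowest library (exact sign-flip permutation test, two-sided, p = 0.031). The span of a circRNA enters the share and is the same in every library, so a positive difference was likely beforehand. The 6 choices also overlap in their libraries, so the 6 differences are not independent and the p-values are only a description.

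**Figure D3:**
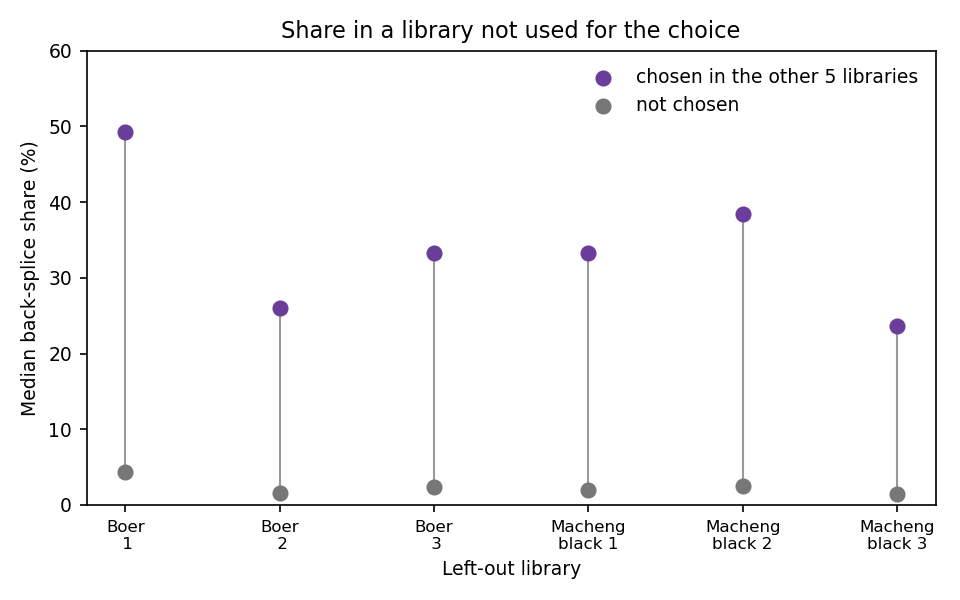
Median back-splice share (vertical axis, percent) in each left-out library (horizontal axis) of circRNAs at 20% or more in the other 5 libraries (purple) and of those below (grey). The purple points lie between 23.6% and 49.3% and the grey points between 1.40% and 4.35%.

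The share also carried from breed to breed. As the span of a circRNA enters the share and is the same in both breeds, such agreement was likely beforehand and is a description. Of 259 circRNAs listed in all 3 Boer libraries with a Boer share of 20% or more, 254 were listed in Macheng black, and 193 of these (76.0%) had a share of 20% or more there, against 1.10% of 1461 others. In the opposite direction, 199 of 210 (94.8%) chosen in Macheng black and listed in Boer were at 20% or more in Boer, against 4.78% of 1296. The medians of those chosen moved from 34.5% in Boer to 29.0% in Macheng black, and from 34.5% in Macheng black to 40.8% in Boer. Both medians were higher in Boer, a direction not tested on these chosen sets. Over all high-share circRNAs, the median share averaged 36.8% in Boer and 32.8% in Macheng black (two-sided exact permutation p = 0.6, n = 3 each). The difference in pooled share between breeds turned without Boer 1 (-0.837 points) or without Macheng black 3 (-0.471 points).

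Over the 173 high-share circRNAs listed in all 6 libraries with at least 10 reads in each, Spearman's rho of the shares between libraries ran from 0.59 to 0.75 over 15 pairs, with medians of 0.70 within and 0.64 between breeds, as a description of circRNAs from the same libraries. The median SD of a share over libraries was 10.9 points and the median coefficient of variation 34.7%, against 2.32 points and 61.1% for the 940 others that met the same requirement. A share of 20% or more in every library was found for 77 of the 173 (44.5%). The widest spreads among the 173 were at chr2:117610360-117611632, with shares of 86.7%, 52.9% and 89.3% in Boer and 81.5%, 43.7% and 27.1% in Macheng black, and at chr24:49011938-49013497, with 77.6%, 21.4% and 52.2% in Boer and 78.3%, 90.7% and 69.6% in Macheng black. In both, the animals of a breed differed among themselves by more than 20 points. Of the 5 steadiest, 4 were at 100% in every library and the other was the abundant chr15 circRNA.

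Boer 1 gave the highest share for 111 of the 173 (64.2%), and Macheng black 3 and Boer 2 gave the lowest for 77 and 57. Pooled over the high-share circRNAs, the share was 52.2% in Boer 1 (exact 95% interval 51.6% to 52.7%), 32.3% in Boer 2 (31.7% to 32.9%) and 41.9% in Boer 3 (41.3% to 42.5%). It was 42.3% (41.7% to 42.8%), 42.9% (42.4% to 43.5%) and 28.6% (28.0% to 29.2%) in Macheng black 1 to 3. The listed back-splice reads of the same libraries were 74796, 24884, 41536, 39020, 49141 and 23480. Boer 1 was highest and Macheng black 3 lowest in both. The reads of the set are part of these totals and the numerator of the share, so no test of this relation is given. The other circRNAs showed the same order at the ends, with pooled shares of 2.85% in Boer 1 and 0.948% in Macheng black 3.

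**Figure D4:**
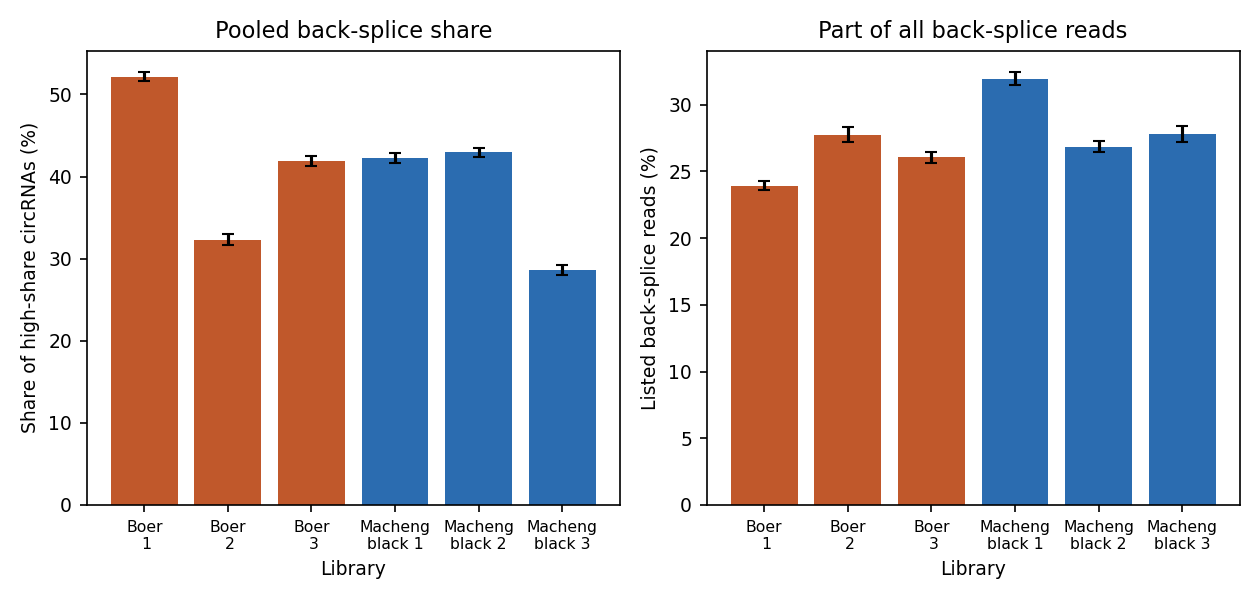
Left, back-splice share pooled over the high-share circRNAs of each library; right, the percent of a library's listed back-splice reads that these circRNAs hold. Bars are single libraries (orange Boer, blue Macheng black) and error bars exact 95% binomial intervals; Boer 1 has the highest share (52.2%) and Macheng black 1 the largest part of the reads (32.0%).

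The pooled share averaged 42.1% ± 9.92 (SD) over the 3 Boer animals and 37.9% ± 8.07 (SD) over the 3 Macheng black animals. This difference of 4.18 points was smaller than the SD of either breed (two-sided exact permutation p = 0.7, where 0.1 is the smallest p that 3 against 3 can give). As given above, it was negative without Boer 1 (-0.837) and without Macheng black 3 (-0.471). The part of all listed back-splice reads held by high-share circRNAs averaged 25.9% ± 1.91 (SD) over the Boer animals and 28.9% ± 2.71 (SD) over the Macheng black animals (two-sided exact permutation p = 0.2, n = 3 each). Macheng black 1 was highest at 32.0%, and 9.42% of its reads came from the pair at the chromosome 23 locus, against 0.0548% to 3.64% in the other 5 libraries. Without that pair the difference went from -2.96 to -0.655 points. By number of circRNAs, the libraries listed 329, 268 and 316 of the 361 in Boer and 308, 324 and 263 in Macheng black, again without a difference beyond the spread (two-sided exact permutation p = 0.7).

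Circle by circle, shares were compared between breeds over the 1117 circRNAs listed in all 6 libraries with a non-junction read in each, 177 of them high-share. All 15 circRNAs this leaves out were high-share. The test called 0 of 177 high-share circRNAs and 0 of 1117 in all (0% called; edgeR quasi-likelihood test of back-splice against non-junction reads, adjusted p under 0.05), with 8 of 177 (4.52%) and 36 of 1117 (3.22%) at an unadjusted p under 0.05. The median change of the ratio of back-splice to non-junction reads, Boer over Macheng black, was 0.27 on the log2 scale for the high-share circRNAs and 0.46 over all tested. Without Boer 1 these medians were -0.08 and -0.01. In 9 of 192 (4.69%) high-share circRNAs every Boer share lay above every Macheng black share, against 5.21% of the 1132 listed in all 6 libraries, and in 6 (3.12%) every Boer share lay below, against 1.06%. The smallest p for a higher share in Boer was at chr1:136450276-136450551, with shares of 88.2%, 66.7% and 70.6% in Boer and 25%, 75% and 26.3% in Macheng black, from 3 to 32 reads a library (log2 change 2.58 ± 0.84, SE; edgeR adjusted p = 0.625). For a higher share in Macheng black it was at chr24:49011938-49013497, whose shares are given above (log2 change -1.95 ± 0.78, SE; edgeR adjusted p = 0.992). Boer 1 lay inside the Macheng black range there, and without it this circRNA passed (edgeR adjusted p = 0.039).

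Back-splice reads of the high-share circRNAs did not pass the test between breeds either. Of 361 tested, 0 had an adjusted p under 0.05 (edgeR quasi-likelihood test), where 13 of 3712 circRNAs passed (0.35%). At an unadjusted p under 0.05 there were 25 of 361 (6.93%), against 194 of 3712 (5.23%). DESeq2 called 1 of the 361 and 8 of the 3712. In simulated counts the edgeR test of reads called 9.2% of 4-fold changes and the test of shares 31%. Counts of 0 called therefore do not show that the breeds are alike. Log2 fold changes, Boer over Macheng black, were positive for 166 and negative for 195, with a median of -0.07 against 0.11 over all tested circRNAs.

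**Figure D5:**
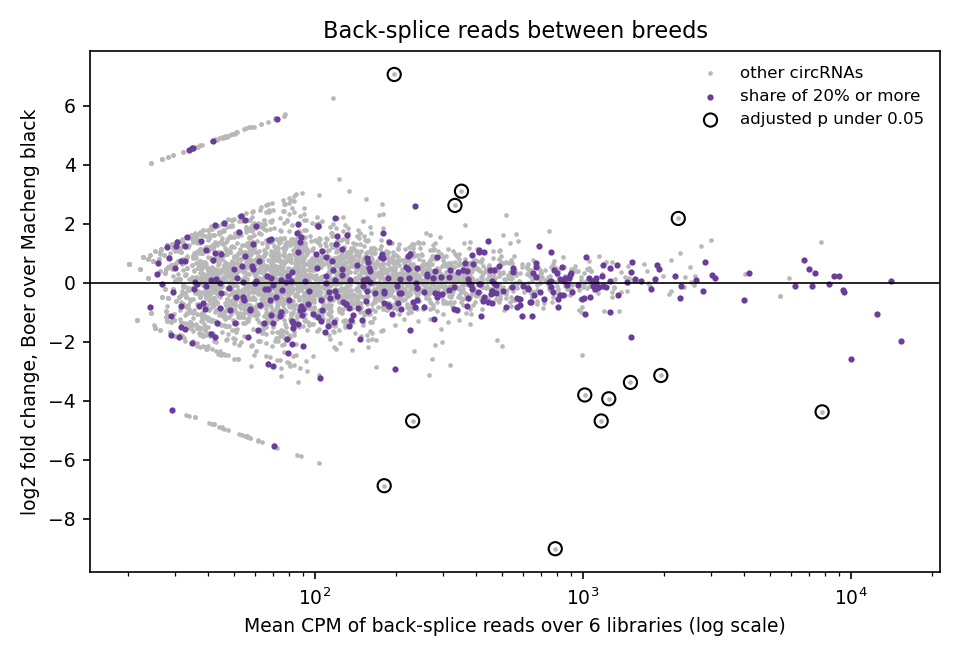
Log2 fold change of back-splice reads, Boer over Macheng black (vertical axis), against the mean CPM over the 6 libraries (horizontal axis, log scale) for the 3712 tested circRNAs. Purple points are high-share circRNAs, grey points the others, and circles mark adjusted p under 0.05; none of the circles holds a purple point.

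The high-share circRNA nearest to a call was that of LOC106501751, listed with a single exon at chr29:48241251-48265156. It had 230, 67 and 116 back-splice reads in Boer and 93, 1310 and 529 in Macheng black. Scaled by library size (CPM, from edgeR), the Boer animals had 2854 ± 643 and the Macheng black animals 17121 ± 13280 (SD, n = 3 each), and Macheng black 1 lay within the Boer range. The log2 fold change was -2.58 ± 0.64 (SE; edgeR adjusted p = 0.0657). It passed in 4 of 11 alternatives, among them DESeq2 (adjusted p = 0.00217) and leaving out Macheng black 1 (edgeR adjusted p = 0.00054). Its non-junction reads were also higher in Macheng black, with 395, 1896 and 1401 against 244, 138 and 118 in Boer, and its share was 48.5%, 32.7% and 49.6% in Boer and 19.1%, 40.9% and 27.4% in Macheng black.

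Others with a larger mean in Macheng black were the scaffold circRNA without non-junction reads described above (edgeR adjusted p = 0.139, the Boer animals at 670 ± 408 CPM, the Macheng black animals at 2360 ± 1324, SD, n = 3 each) and that at chr16:21993759-21995222. The scaffold circRNA passed in 2 of 11 alternatives, with no filter on low counts (edgeR adjusted p = 0.0482) and without Macheng black 1 (edgeR adjusted p = 0.000815), which lay within the Boer range. The chr16 circRNA had 7 reads in Boer 1, none listed in Boer 2 and 3, and 21, 14 and 5 in Macheng black (edgeR adjusted p = 0.24). At chr19:41412510-41412990, 5, 6 and 4 reads were listed in Macheng black and none in Boer (edgeR adjusted p = 0.683). That circRNA met the rule of 3 libraries through Macheng black alone, so its lack of overlap was fixed by the filter. At chr17:62659576-62661597 the breeds did not overlap, the Boer animals at 648 ± 203 CPM and the Macheng black animals at 1380 ± 154 (edgeR adjusted p = 0.721; SD, n = 3 each). How often CPM did not overlap over all tested circRNAs was not counted, so this is a description.

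With a larger mean in Boer, CLPTM1 had 15, 13 and 22 reads in Boer and 6 in Macheng black 3 alone (edgeR adjusted p = 0.471). Without Macheng black 3 it passed (edgeR adjusted p = 0.0104). CRB1 had 77, 23 and 39 reads in Boer and 18, 20 and 7 in Macheng black, or means of 963 ± 206 and 402 ± 122 CPM (edgeR adjusted p = 0.605; SD, n = 3 each). AGPAT4, which encodes an acyltransferase of phospholipid synthesis, had 5, 9 and 2 reads in Boer and none listed in Macheng black (edgeR adjusted p = 0.827). For CRB1 and AGPAT4 the breeds did not overlap in CPM, and their adjusted p stayed above 0.05 in each alternative that tested them. AGPAT4 met the rule of 3 libraries through Boer alone, and unlisted entries were taken as 0. Its lack of overlap was therefore fixed by the filter. The circRNAs at chr4:63907222-63908635 and chr26:10317225-10317577 had CPM of 634 ± 186 and 1025 ± 264 among the Boer animals, against 253 ± 243 and 498 ± 174 among the others (edgeR adjusted p = 0.827 and 0.843; SD, n = 3 each). The breeds overlapped in CPM at the chr4 circRNA and did not at the chr26 one. A lack of overlap was not counted over all tested circRNAs, so these cases are a description.

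Among the abundant circRNAs of named hosts, that of RANBP1 averaged 5989 ± 2477 CPM over the Boer animals and 6430 ± 1368 over the Macheng black animals, and that of UBL5 2548 ± 125 and 3062 ± 295 (SD, n = 3 each). SMARCA5 averaged 3197 ± 1475 and 4801 ± 1295 CPM, and CAMSAP1 2228 ± 246 and 1600 ± 156 (SD, n = 3 each). Their log2 fold changes were -0.10 ± 0.48, -0.27 ± 0.41, -0.58 ± 0.46 and 0.47 ± 0.40 (SE), and none of them passed the edgeR test. The breeds overlapped in CPM for RANBP1 and SMARCA5. They did not for CAMSAP1, with the Boer animals above, and UBL5, with the Boer animals below. Without a count over all tested circRNAs, this too is a description.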

How the data were processed

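The deposited files, 1 per library, hold whole-number counts of back-splice junction reads and of non-junction reads per circRNA, not normalized, and lengths in bases, per the file headers and the values. The submitters' processing notes name Bowtie2 2.0.6 and TopHat2. The caller of circRNAs, genome build, annotation and strandedness were not given in the sources used here. Breed and animal number come from the sample titles; the file of Boer 2 carries a code whose last digit is not the one its label gives. The smallest listed back-splice count is 2, and an unlisted circRNA entered the tests as 0.

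CircRNAs were matched by chromosome, start, end and strand, and positions were printed counted from 1. Of 829 host identifiers, 27 were set aside as implausible (on several chromosomes, or with a part over 1 Mb), which left 2046 circRNAs (14.7%) with a usable host. CircRNAs with 2 or more reads in 3 or more libraries were tested by edgeR 4.0.16 (R 4.3.3; quasi-likelihood, TMM, Benjamini-Hochberg over all 3712). Shares were tested in edgeR on both counts with library, kind of read and its interaction with breed as terms. DESeq2 1.42.0 was an alternative. Exact tests used scipy 1.17.1. On simulated counts, the edgeR test of reads called 9.2% of 4-fold and 74.1% of 16-fold changes. The test of shares called 31% of 4-fold and 100% of 16-fold changes of the ratio. Over all tested circRNAs, most 4-fold differences could thus be missed. Libraries of a breed are taken as separate animals from their titles and protocols, and p-values measure the spread between them.

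Named circRNAs follow a rule of rank: highest share, most reads, smallest p per direction, nearest the threshold, most and least variable, and most reads among those with a named host. The circRNAs, lists and tests were chosen with earlier results of these data known.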

Additional observations from a re-analysis of the deposited data

How the results depend on the processing

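The high-share set held 361 circRNAs, 728 at a threshold of 0.1, 223 at 0.3 and 668 with junction reads counted double; it held 377 by the mean of library shares, 343 with at least 20 reads, and between 276 (without Boer 1) and 366 when 1 library was left out. The median span of 1279 bases moved to 1747.5 at 0.1, 1092 at 0.3, 1522.5 for circRNAs in all 6 libraries, 1338 with a non-junction read in every listing library and 8464 with non-junction reads per kilobase; only the last exceeds the median of the others. The difference in pooled share between breeds ranged from -0.837 to 9.09 points when 1 library was left out. The sign of the difference in the part of reads was kept in all 10 alternatives, from -3.96 to -0.655 points. The held-out difference ranged from 18.6 to 41.6 points over 5 alternatives, each at p = 0.031 (exact sign-flip permutation test, with the limits given above).

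Of all circRNAs, 13 differed between breeds, 2 with at least 5 reads in 3 libraries, 35 with no filter and 8 with DESeq2, and between 1 and 21 when 1 library was left out. Of the high-share circRNAs 0 differed, 1 without TMM (LOC106501751), 3 with no filter, 1 with DESeq2, and between 0 and 2 when 1 library was left out. For the share test the counts without 1 library were 0 to 3 in all and 0 to 1 among high-share circRNAs. With the replicate block, the counts were 11 and 0 for reads and 0 and 0 for shares. Deviations of same-numbered libraries correlated at -0.0171, -0.034 and 0.0163. These values gave no sign of pairing by number. Differently numbered libraries were not compared, so pairing was not settled. At 23480 to 74796 back-splice reads a library, a member with under 10 reads has a share known only within wide intervals.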
